A study of Mus musculus with 30 samples.

Results

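Siglech, Ccr9 and Bst2 are genes that mark plasmacytoid dendritic cells (pDCs), and their transcripts were measured in whole B16 melanomas that secreted IFNα4, IFNα9 or neither. These 3 genes, chosen by name, were 3 of the 39676 genes counted. The tumors grew from B16-F10 mouse melanoma cells in female C57BL/6 mice and were taken whole on day 8 after subcutaneous inoculation, with 10 tumors each of the types labelled B16-GFP, B16-IFNA4 and B16-IFNA9. B16-IFNA4 and B16-IFNA9 cells carried a retroviral vector in which a long terminal repeat drove the interferon together with eGFP, and B16-GFP cells carried the vector with GFP alone. Cells of all 3 types, controls included, also carried a membrane form of herpes simplex virus glycoprotein B with CFP, and luciferase with puromycin resistance. Each was a line that had been sorted and selected, so the tumors of a type replicate the mouse and not the making of the line.

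pDCs are a scarce class of dendritic cell that senses nucleic acids through the endosomal receptors TLR7 and TLR9 and can release large amounts of type I interferon. Siglech encodes Siglec-H, an endocytic surface receptor of mouse pDCs that signals through the adaptor DAP12. Ccr9 encodes the receptor for the chemokine CCL25, which draws pDCs and T cells to the gut and thymus. Bst2 encodes tetherin, a membrane protein that holds budding enveloped viruses at the cell surface. Antibodies to it stain pDCs of untreated mice, but many other cell types make it once they are exposed to interferon, so it is a marker of pDCs and an interferon-stimulated gene (ISG) at once.

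The promoters of the 3 genes are shown because they differ in the sequences through which interferon is known to act. Each window runs from 250 bases before to 50 bases after the start that RefSeq gives on GRCm38.p6, and all 3 genes matched. An ISRE core, the element bound by interferon-activated ISGF3 and by IRF factors, was searched as GAAA, any 2 bases and GAAA again, a GAS element, bound by STAT dimers, as TTCNNNGAA, and an E-box, bound by TCF4 and other basic helix-loop-helix factors, as CANNTG, all on both strands. In the Bst2 promoter (chr8:71537423-71537722, minus strand) the capitals mark 2 overlapping ISRE cores, and in those of Siglech (chr7:55767934-55768233, plus strand) and Ccr9 (chr9:123766961-123767260, plus strand) they mark E-boxes.
Bst2: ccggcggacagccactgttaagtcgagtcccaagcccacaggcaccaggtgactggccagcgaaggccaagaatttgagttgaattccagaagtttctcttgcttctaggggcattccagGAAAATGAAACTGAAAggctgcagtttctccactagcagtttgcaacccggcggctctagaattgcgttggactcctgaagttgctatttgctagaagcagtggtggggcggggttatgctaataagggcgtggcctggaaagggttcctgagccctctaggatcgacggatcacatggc
Siglech: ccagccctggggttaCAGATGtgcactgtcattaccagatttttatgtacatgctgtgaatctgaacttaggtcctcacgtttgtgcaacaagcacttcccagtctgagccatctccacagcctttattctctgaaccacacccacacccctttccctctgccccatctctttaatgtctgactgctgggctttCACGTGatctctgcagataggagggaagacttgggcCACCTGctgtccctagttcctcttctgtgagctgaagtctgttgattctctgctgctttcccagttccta
Ccr9: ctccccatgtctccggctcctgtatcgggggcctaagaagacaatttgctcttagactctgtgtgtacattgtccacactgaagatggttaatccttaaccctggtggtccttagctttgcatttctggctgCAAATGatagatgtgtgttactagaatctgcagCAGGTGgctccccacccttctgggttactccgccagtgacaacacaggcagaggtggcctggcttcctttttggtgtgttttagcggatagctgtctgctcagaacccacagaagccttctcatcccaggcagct

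The Bst2 window held GAAAATGAAA from base -130 to -121 and GAAACTGAAA from base -124 to -115 relative to the start, so that the pair shared 4 bases. A GAS element, TTCCAGGAA, lay from base -136 to -128 and overlapped the first of them, and 2 E-boxes were also present. The Siglech window had no ISRE core, 1 GAS element from base -123 to -115 and 3 E-boxes. The Ccr9 window had 2 E-boxes and neither of the other motifs. Over 32544 mouse promoters of the same length, 3.448% held an ISRE core, 8.327% a GAS element and 72.296% an E-box. Among antiviral restriction genes, a hand-written list to which Bst2 is compared below, 12 of the 19 with a promoter in the table held an ISRE core, and among other pDC marker genes 1 of 18 did, Fcrla. These matches describe the letters of 1 window per gene, and binding was not measured.

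RNA from the tumors was sequenced as mRNA and counted per gene, with 14598517 to 19788383 counts per tumor. Counts were scaled by TMM, a factor that makes the bulk of genes equal between tumors, and levels are given as CPM, counts relative to the scaled library size. As a check of the labels, Ifna4 had 81 to 188 counts in each B16-IFNA4 tumor and Ifna9 had 55 to 148 in each B16-IFNA9 tumor, and both were at 0 elsewhere. Tumor 7 of the B16-GFP type stood apart, with the lowest TMM factor (0.768) and low counts of leukocyte genes, so counts of genes and relations that change without it are given both ways. The tumors were bulk samples, in which fewer cells of a type and less RNA per cell cannot be told apart.

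Siglech (ENSMUSG00000051504.18, chr7:55768178-55778925, plus strand, GENCODE M21 on GRCm38) was scarce in all tumors and highest in the B16-IFNA4 type. B16-GFP tumors had 0 CPM at the lowest, 0.905 at the median and 1.71 at the highest, which came from 0 to 31 counts per tumor. B16-IFNA4 tumors ran from 2.37 to 3.90 CPM with a median of 3.00, from 40 to 69 counts. B16-IFNA9 tumors ran from 0.774 to 2.80 CPM with a median of 1.46, from 13 to 52 counts. All 10 B16-IFNA4 tumors lay above all B16-GFP tumors, whereas 3 of the 10 B16-IFNA9 tumors did, and 9 of the 10 lay below every B16-IFNA4 tumor. The single value of 0 was B16-GFP tumor 7, where a count of 0 allows up to 3 counts.

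The means for Siglech were 0.933 ± 0.544 CPM in B16-GFP, 3.10 ± 0.557 in B16-IFNA4 and 1.54 ± 0.682 in B16-IFNA9 tumors (SD, n = 10 each). In a quasi-likelihood fit of all 30 tumors with edgeR, Siglech was 3.26-fold higher in B16-IFNA4 than in B16-GFP tumors (log2 fold change 1.70, SE 0.31, Benjamini-Hochberg adjusted p = 2.07e-05). In B16-IFNA9 tumors the log2 fold change was 0.70 with an SE of 0.31, which missed the threshold of 0.05 at an edgeR adjusted p of 0.0544. Its 95% interval on the log2 scale ran from 0.09 to 1.31, and DESeq2 placed it past the threshold with an adjusted p of 0.0222, so the data leave the call for Siglech in B16-IFNA9 tumors at the limit of what they resolve. Compared directly, Siglech was 2.00-fold higher in B16-IFNA4 than in B16-IFNA9 tumors (edgeR adjusted p = 0.0176).

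Ccr9 (ENSMUSG00000029530.16, chr9:123678439-123784330, plus strand) rose in both IFN-I–secreting types. The B16-GFP tumors ran from 0.357 to 1.96 CPM with a median of 1.28, the B16-IFNA4 tumors from 2.79 to 6.47 with a median of 3.88, and the B16-IFNA9 tumors from 1.65 to 3.88 with a median of 2.38. B16-IFNA4 and B16-GFP tumors did not overlap, and 7 of 10 B16-IFNA9 tumors were above all B16-GFP tumors while 7 of 10 were below all B16-IFNA4 tumors. The means were 1.20 ± 0.453, 4.04 ± 1.03 and 2.46 ± 0.717 CPM in the same order (SD, n = 10 each). The rise was 3.31-fold with IFNα4 (log2 fold change 1.73, SE 0.21, edgeR adjusted p = 3.20e-08) and 2.02-fold with IFNα9 (1.01, SE 0.21, adjusted p = 1.67e-04). Between the secreting types the level was 1.64-fold higher with IFNα4 (edgeR adjusted p = 0.0120).

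The Ccr9 counts were small, 4 to 111 per tumor, and other genes lie over part of the locus. AC165425.1 on the opposite strand covers 18.83% of the exon bases of Ccr9 and had 0 to 7 counts per tumor, and Gm17200 on the same strand covers 2.622% and had 0 to 12. Slc6a20a on the opposite strand covers 0.214% and had 4 to 187. Gm10052 (3649 to 7534 counts), Lztfl1 (406 to 1098) and Gm17020 (0 to 2) lie in the span of Ccr9 but share no exon bases with it. Of the 50-base stretches in Ccr9 transcripts, 20.085% also occur in other genes on either strand, against 0.389% for Siglech and 0 for Bst2. For Ccr9 those genes were the overlapping AC165425.1 and Gm17200, and Olfr1156. How the counting treated such reads is not given in the sources used here, so part of the Ccr9 signal is uncertain. The RefSeq start used for the promoter lies inside the longer span that GENCODE gives the gene.

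Bst2 (ENSMUSG00000046718.8, chr8:71534255-71537456, minus strand) was far more abundant than the other members and rose in both IFN-I–secreting types without overlap with the controls. It had 30.1 to 104 CPM in B16-GFP tumors with a median of 73.2, 233 to 388 in B16-IFNA4 tumors with a median of 297, and 173 to 278 in B16-IFNA9 tumors with a median of 215. Counts were between 337 and 6665 per tumor, so counting error was small beside the spread between tumors. All 20 secreting tumors were above every control, and 7 of 10 B16-IFNA9 tumors were below all B16-IFNA4 tumors. The means were 71.8 ± 23.0, 294 ± 46.9 and 216 ± 31.0 CPM (SD, n = 10 each). Bst2 was 4.09-fold higher with IFNα4 (log2 fold change 2.03, SE 0.15, edgeR adjusted p = 2.36e-12) and 3.00-fold higher with IFNα9 (1.59, SE 0.15, adjusted p = 7.48e-10). The B16-IFNA4 level was 1.36-fold that of B16-IFNA9 tumors (edgeR adjusted p = 0.0352), a call that was lost with library totals in place of TMM (adjusted p = 0.0686) and without any 1 of 8 of the 30 tumors.

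**Figure D1:**
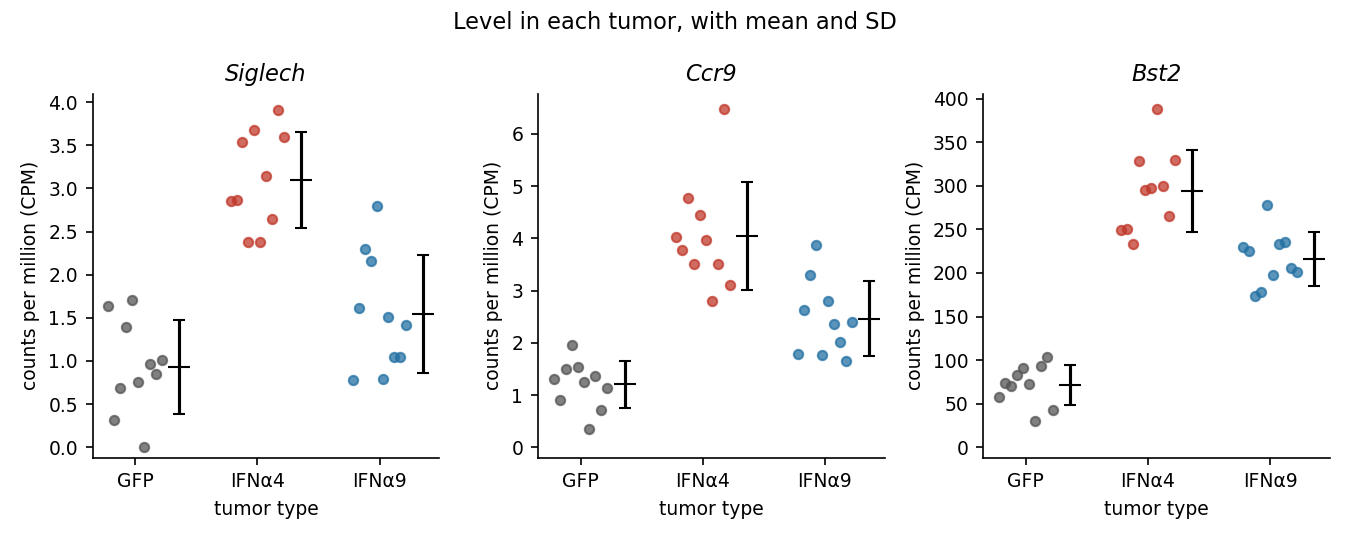
CPM of Siglech, Ccr9 and Bst2 (y axes, linear) in each of the 10 tumors of each type (points), with the mean and SD beside them. For all 3 genes the IFNα4 points lie above all GFP points, the IFNα9 points lie between on average, and Bst2 reaches 388 CPM where Siglech reaches 3.90 and Ccr9 6.47.

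These counts stand against a large background. Of 15926 genes tested, 65.4% were called different between B16-IFNA4 and B16-GFP tumors, 31.3% as higher and 34.1% as lower, and 8.5% were higher with no overlap between the types. For B16-IFNA9 against B16-GFP tumors 55.7% were called, 26.9% as higher and 28.9% as lower, and 4.44% were higher without overlap. Between B16-IFNA9 and B16-IFNA4 tumors 17.8% were called, 10.5% as higher and 7.25% as lower in B16-IFNA9, and 0.741% were lower without overlap. With only the 20 tumors compared in the fit, 27.1% were called there, 14.7% as higher and 12.4% as lower. The direction of the calls depended on the scaling, since with library totals in place of TMM the higher calls outnumbered the lower against B16-GFP tumors, by 5413 to 4758 with IFNα4 and 5052 to 3608 with IFNα9. All 3 members passed the filter on low counts, 3 of 3 were called higher with IFNα4, 2 of 3 with IFNα9, and 3 of 3 were lower with IFNα9 than with IFNα4. The comparisons share the B16-GFP or the B16-IFNA4 tumors and are therefore not separate experiments.

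Per kilobase of exon, the order of the members was Bst2, Siglech, Ccr9 in every type. In mean CPM Ccr9 was above Siglech in every type. Their order per kilobase thus rests on the annotated exon lengths, 10.26 kilobases for Ccr9 against 3.383 for Siglech. Bst2 had 79.5 CPM per kilobase in B16-GFP, 325 in B16-IFNA4 and 239 in B16-IFNA9 tumors, above 94.4%, 99.1% and 98.6% of the genes compared. Siglech had 0.276, 0.916 and 0.456 CPM per kilobase, above 6.24%, 16.1% and 8.19% of genes. Ccr9 had 0.117, 0.394 and 0.240, above 1.75%, 6.88% and 3.17%. Bst2 was thus among the most abundant transcripts of the secreting tumors while the other members stayed near the bottom of the genes that passed the filter.

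Within a tumor the balance between the members was compared as log2 ratios of CPM, in 7 ratios and 3 comparisons with two-sided permutation tests of 100000 resamples, adjusted over all 21. The ratio of Siglech to Ccr9 did not differ by an amount the test called in any comparison, with differences of 0.18 with IFNα4 (adjusted p = 0.618), -0.16 with IFNα9 (0.649) and -0.34 between the secreting types (0.18, permutation tests). The ratio of Bst2 to Siglech was 0.60 higher in B16-IFNA9 than in B16-IFNA4 tumors (permutation test, adjusted p = 0.049) and that of Bst2 to Ccr9 0.64 higher in B16-IFNA9 than in B16-GFP tumors (permutation test, adjusted p = 0.049). Both lie at the threshold, and with a prior count of 0.5 in place of 2 neither was past it (adjusted p = 0.0554 and 0.1, permutation tests). The difference for Bst2 to Ccr9 was also not called without B16-GFP tumor 7. Bst2 to Siglech was 0.80 higher in B16-IFNA9 than in B16-GFP tumors, which was not called (permutation test, adjusted p = 0.0764). With library totals or without B16-GFP tumor 7 it was called.

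Other pDC genes rose in many, but not all, cases. A hand-written list of 24 pDC marker genes other than the members had 20 with a row and 18 past the filter. With IFNα4, 12 of the 18 rose and 3 fell, with a median log2 fold change of 1.04 against 0.009 for all genes tested. With IFNα9, 10 rose and 2 fell, with a median of 0.70 against -0.003. With only the 20 tumors compared, 9 of 17 tested rose and 1 fell with IFNα9. There 24.5% of all genes were called higher and 26.2% lower. Without B16-GFP tumor 7 the counts were 12 and 2 with IFNα4 and 10 and 3 with IFNα9, and without B16-GFP tumor 8 they were 11 and 2 with IFNα9, the added gene being Cd4. Several of these genes are also made by other cells, Cd4, Cd8b1 and Lag3 by T cells among them.

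The pDC markers that rose were unlike each other in how the secreting types compared. Cd8b1, which encodes a CD8 chain of T cells, had log2 fold changes of 3.33 with IFNα4 and 3.04 with IFNα9, and its difference of -0.28 between the secreting types was not called (edgeR adjusted p = 0.567). Klk1, a tissue kallikrein, had 0 to 6 counts in B16-GFP, 38 to 76 in B16-IFNA4 and 7 to 33 in B16-IFNA9 tumors, without overlap between any types. Its log2 fold change was 4.21 with IFNα4 (SE 0.31) and 2.53 with IFNα9 (SE 0.32), and it was lower by -1.68 in B16-IFNA9 than in B16-IFNA4 tumors (edgeR adjusted p = 1.96e-05). The filter took the mean over all tumors, B16-IFNA4 included. In a fit of only the 20 B16-IFNA9 and B16-GFP tumors 17 of the 18 markers were tested, and Klk1 was not among those called. Klra17, a lectin-like receptor of the Ly49 family, followed the order of Klk1, with mean levels of 0.509, 2.49 and 1.17 CPM. Pacsin1, an adaptor of endocytosis and of TLR signalling in pDCs, went the other way, with 0.899 ± 0.517 CPM in B16-GFP, 1.93 ± 0.339 in B16-IFNA4 and 5.70 ± 2.92 in B16-IFNA9 tumors (SD, n = 10 each), and was higher with IFNα9 than with IFNα4 by 1.56 on the log2 scale (edgeR adjusted p = 7.57e-05).

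Some pDC markers fell. Cd209d, a C-type lectin, fell with IFNα4 by 1.20 on the log2 scale (edgeR adjusted p = 1.09e-04) and was 0.76 higher with IFNα9 than with IFNα4, a call lost without B16-IFNA4 tumor 6 or B16-IFNA9 tumor 2. Ptprs, a receptor phosphatase of pDCs and neurons, fell with IFNα4 by 0.32, a call lost without B16-GFP tumor 7, and was 0.49 higher with IFNα9 than with IFNα4. Cox6a2, a subunit of cytochrome c oxidase, fell with IFNα9 by 0.92 (edgeR adjusted p = 0.0265), or by 0.65 and not called without B16-GFP tumor 3. That call was also lost with only the 20 tumors compared. With IFNα4 the log2 fold change of Cox6a2 was -0.11 and was not called. Rpgrip1, a ciliary protein gene, fell by 0.29 and 0.24 on the log2 scale with IFNα4 and IFNα9. Between the secreting types 3 of the 18 markers were higher and 3 lower with IFNα9, with 3 and 5 without B16-GFP tumor 7 in the fit and 3 and 6 with only the 20 tumors compared.

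Transcription factors that direct pDC development, with the growth factor receptor gene Flt3, made a list of 12 that passed the filter. Their median levels in B16-GFP tumors ran from 0.783 CPM for Spib to 289 for Stat3, where Siglech had 0.905. The part of cells other than pDCs in these levels was not tested. With IFNα4, 10 of 12 rose and none fell by edgeR, DESeq2 or at an unadjusted p under 0.05 (median log2 fold change 0.81). With only the 20 tumors compared, 9 rose, Spib no longer among them, where 30.5% of all genes were called higher. With IFNα9, 9 rose and none fell by edgeR (median 0.69), with 1 lower at an unadjusted p under 0.05 and 1 by DESeq2. With only the 20 tumors compared, 8 rose, Tcf4 no longer among them, and none fell, where 24.5% of all genes were called higher. Without B16-GFP tumor 7 the edgeR counts were 8 and 1, the latter being Nfil3. No gene of the list was called between the secreting types by edgeR, where 17.8% of all genes were, and 2 were lower at an unadjusted p under 0.05 and 1 by DESeq2. Spib and Ikzf1 were called lower with IFNα9 without that tumor and with only the 20 tumors compared, where 27.1% of all genes were called, and Spib also without B16-GFP tumor 8.

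Tcf4, which encodes the E protein E2-2 that sets pDC identity, was already at 111 ± 21.5 CPM in B16-GFP tumors and reached 139 ± 13.2 and 130 ± 19.7 CPM with IFNα4 and IFNα9 (SD, n = 10 each), a log2 fold change of 0.33 (edgeR adjusted p = 0.00473) and 0.23 (0.0452), the latter no longer called in 11 of 30 fits that each left out 1 tumor. Spib, an Ets factor of pDCs and B cells, had 4 to 23 counts in 9 B16-GFP tumors and 205 in B16-GFP tumor 8, or 0.788 ± 0.380 CPM (SD, n = 9) against 11.6 CPM. The B16-IFNA9 tumors, with 14 to 43 counts, were all below the B16-IFNA4 tumors, with 48 to 80. Fitted on all 30 tumors, Spib had a log2 fold change of 1.12 with IFNα4 (edgeR adjusted p = 0.0274) and -0.06 with IFNα9 (0.917), and both values rested on tumor 8. Without it, an alternative added after seeing the data, Spib rose by 2.36 with IFNα4 (SE 0.24) and by 1.18 with IFNα9 (SE 0.23, edgeR adjusted p = 0.000121). Irf8, which pDCs and conventional dendritic cells need, rose by 1.43 and 1.72 with IFNα4 and IFNα9, Runx2, which lets pDCs leave the marrow, by 1.40 and 1.15, and Ikzf1, a lymphoid factor, by 2.10 and 1.61, all without overlap with the controls.

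Genes of the TLR7 and TLR9 pathway rose too. Of 14 tested, 9 rose with IFNα4 and 7 with IFNα9, none fell by edgeR, DESeq2 or at an unadjusted p under 0.05, and 6 were lower with IFNα9 than with IFNα4, 7 without B16-GFP tumor 7 in the fit. Tlr9 had mean levels of 5.78 ± 3.31, 81.0 ± 16.3 and 44.9 ± 15.2 CPM in B16-GFP, B16-IFNA4 and B16-IFNA9 tumors (SD, n = 10 each), with log2 fold changes of 3.80 and 2.94. Tlr7 had 20.3, 74.9 and 45.4 CPM, with log2 fold changes of 1.88 and 1.16. Irf7, the factor that drives interferon-α genes and is itself an ISG, rose by 3.44 and 2.49 and was lower with IFNα9 than with IFNα4 by -0.96 (edgeR adjusted p = 7.38e-04). TLR7, TLR9 and IRF7 are also made by B cells, macrophages and other cells exposed to interferon.

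None of 13 endogenous type I interferon genes, the products for which pDCs are known, passed the filter. Their summed level was at most 0.339 CPM in B16-GFP, 1.59 in B16-IFNA4 and 2.95 in B16-IFNA9 tumors. The Ifna genes resemble the transgenes in sequence, and the part of misassigned transgene reads in these sums was not tested.

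**Figure D2:**
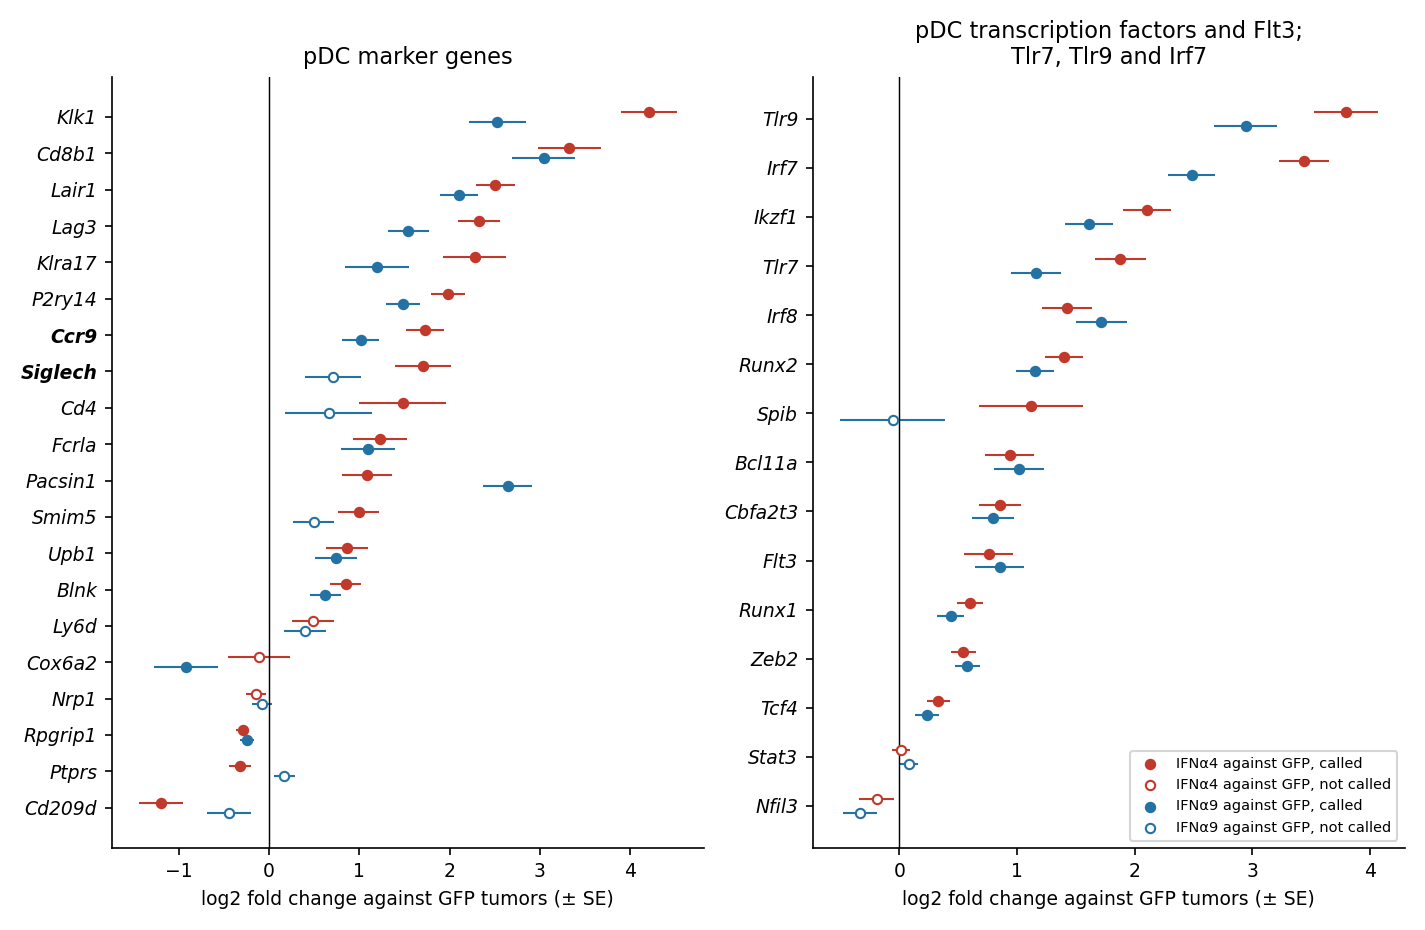
Log2 fold change against B16-GFP tumors with SE (x axis) for the tested pDC marker genes with Siglech and Ccr9 in bold (left) and for pDC transcription factors, Flt3, Tlr7, Tlr9 and Irf7 (right), red for IFNα4 and blue for IFNα9, filled where called and open where not. Siglech and Ccr9 lie in the middle of the markers that rose with IFNα4 and, at 0.70 (not called) and 1.01, near the lower end for IFNα9, Pacsin1 is the marker with a much larger value for IFNα9 (2.64) than for IFNα4 (1.09), and the value of Spib near 0 for IFNα9 rests on B16-GFP tumor 8, without which it is 1.18.

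Around Ccr9, its ligand Ccl25 rose with IFNα9 by 0.46 on the log2 scale (edgeR adjusted p = 0.00119), from 7.89 ± 1.45 to 10.9 ± 2.16 CPM (SD, n = 10 each). With IFNα4 its log2 fold change was 0.22 and was not called (adjusted p = 0.089). Ackr4, a receptor that binds CCL25 and removes it, rose with both, by 0.83 and 0.90. The integrin genes Itgb7 and Itgae, whose products hold lymphocytes in gut and epithelium, rose by 1.98 and 1.07 with IFNα4 and by 1.63 and 1.24 with IFNα9. Of 6 tested genes of this axis, 3 rose with IFNα4 and 4 with IFNα9, and none fell by edgeR, DESeq2 or at an unadjusted p under 0.05. Without B16-GFP tumor 7 the count with IFNα4 was 4. Between the secreting types edgeR and DESeq2 called 0 of them, and 1 was higher with IFNα9 at an unadjusted p under 0.05.

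Around Siglech, 5 of 7 other tested Siglec genes rose with IFNα4 and 3 with IFNα9. Siglecg, an inhibitory receptor of B cells, rose by 2.19 and 1.71, Siglecf, a marker of eosinophils, by 1.83 and 1.56, and Siglec1, the sialoadhesin of macrophages, by 1.01 and 0.84. Cd33 was the gene that fell with IFNα4, by 0.52 on the log2 scale (edgeR adjusted p = 0.0411), a call lost in 12 of 30 fits that each left out 1 tumor. A list of 8 genes for adaptors and enzymes of immunoreceptor signalling holds Tyrobp, whose product DAP12 pairs with Siglec-H, beside Hcst, Fcer1g and Card9, which are not known as its partners. All 8 rose with IFNα4 and 7 of 8 with IFNα9. Tyrobp rose by 0.82 and 0.50, its relative Hcst by 1.67 and 0.87, and the kinase Btk and the phospholipase Plcg2 by 1.39 and 1.18 with IFNα4 and 1.16 and 1.00 with IFNα9. These adaptors and kinases serve many myeloid and lymphoid cells besides pDCs.

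Bst2 was set beside 24 other antiviral restriction genes, nearly all of them ISGs. With each interferon 23 of 24 rose and none fell by edgeR, DESeq2 or at an unadjusted p under 0.05, and Ifitm2 was the gene not called, with log2 fold changes of -0.15 and -0.21. The median log2 fold change was 2.45 with IFNα4 and 2.17 with IFNα9, above the 2.03 and 1.59 of Bst2. With IFNα4, 15 of the 24 changed by more than Bst2 and 9 by less, and with IFNα9 16 and 8. Mx1, a dynamin-like GTPase that blocks influenza viruses, rose by 4.25 and 3.03, Ifit3, of a family that binds foreign RNA, by 4.24 and 3.45, and Zbp1, a sensor of Z-form nucleic acid, by 3.19 and 3.12. Ifitm3, which like tetherin acts at membranes against enveloped viruses, rose by 1.38 and 1.09.

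Between the secreting types 10 of the 24 restriction genes were lower with IFNα9 and none was higher by edgeR, DESeq2 or at an unadjusted p under 0.05, with a median of -0.33 against -0.006 over all genes, and leaving out each tumor in turn gave 7 (without B16-IFNA4 tumor 7 or 10) to 12 (without B16-GFP tumor 7). A fit of the 20 tumors compared called 15 lower. Apobec3 and Oas1a lost their calls in 13 and 12 of the 30 fits. Mx1 differed by -1.22 and Mx2 by -1.01, without overlap, where Bst2 differed by -0.44 and overlapped. The log2 ratio of Bst2 to the mean of the 24 genes was 0.41 ± 0.22 in B16-GFP, 0.02 ± 0.31 in B16-IFNA4 and -0.02 ± 0.29 in B16-IFNA9 tumors (SD, n = 10 each). It was lower by -0.39 with IFNα4 (permutation test, adjusted p = 0.0136) and by -0.43 with IFNα9 (permutation test, adjusted p = 0.00895), and the difference of -0.04 between the secreting types was not called (permutation test, adjusted p = 0.792). Bst2 thus rose by less than the mean of these genes.

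**Figure D3:**
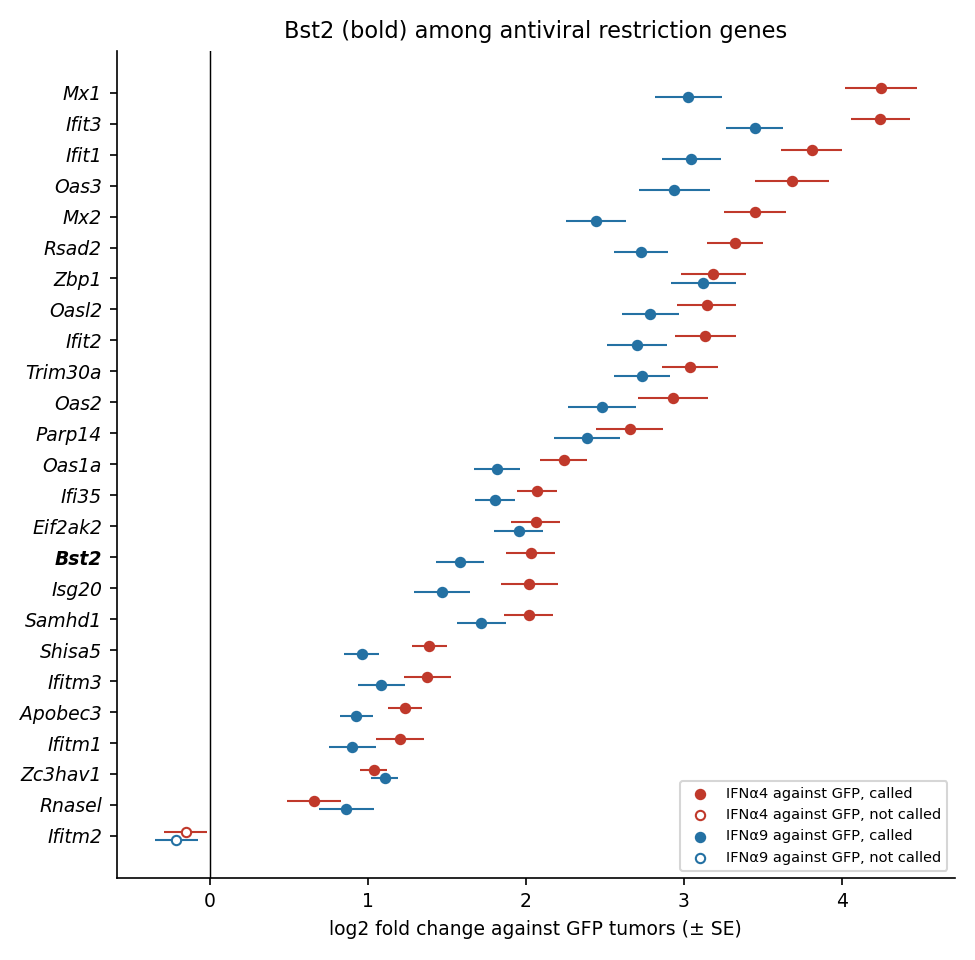
Log2 fold change against B16-GFP tumors with SE (x axis) for Bst2 (bold) and 24 antiviral restriction genes, ordered by the value for IFNα4, red for IFNα4 and blue for IFNα9, filled where called and open where not. Bst2 lies in the lower part of the list at 2.03 and 1.59, and Ifitm2 at the bottom is the gene with open points.

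Of 7 tested pan-leukocyte genes, 6 rose with each interferon and 1 fell with IFNα4, and the members were set against them. Ptprc, which encodes the pan-leukocyte protein CD45, rose from 80.7 ± 29.5 CPM to 508 ± 140 with IFNα4 and 355 ± 106 with IFNα9 (SD, n = 10 each), a log2 fold change of 2.65 and 2.14. Relative to Ptprc, Siglech was lower by -0.84 with IFNα4 (permutation test, adjusted p = 0.00273) and by -1.35 with IFNα9 (permutation test, adjusted p = 0.0032), and Ccr9 by -1.02 (0.00273) and -1.19 (6.3e-04, permutation tests). Bst2 differed from Ptprc by -0.64 and -0.55, which was not called (permutation tests, adjusted p = 0.0537 and 0.121).

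These ratios depended on the leukocyte gene used. With the mean of 7 pan-leukocyte genes in place of Ptprc, the difference for Siglech was 0.54 with IFNα4 (permutation test, adjusted p = 0.136) and -0.22 with IFNα9 (0.633), and that for Ccr9 0.36 (0.145) and -0.05 (0.792, permutation tests). Bst2 was then higher, by 0.74 (permutation test, adjusted p = 0.00483) and 0.59 (0.0149). Ptprc rose most of the 7, Cd52 next in rank with 1.66 and 1.44, and Arhgdib fell with IFNα4 by 0.46, so the genes of this list did not move together. With IFNα4 the sign of the difference for Siglech and Ccr9 thus turned with the reference, and with IFNα9 the sign was negative with both references but was called only with Ptprc. Between the secreting types Siglech was lower with IFNα9 relative to the 7 genes by -0.76 (permutation test, adjusted p = 0.021) and relative to Ptprc by -0.51, which was not called (permutation test, adjusted p = 0.138).

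**Figure D4:**
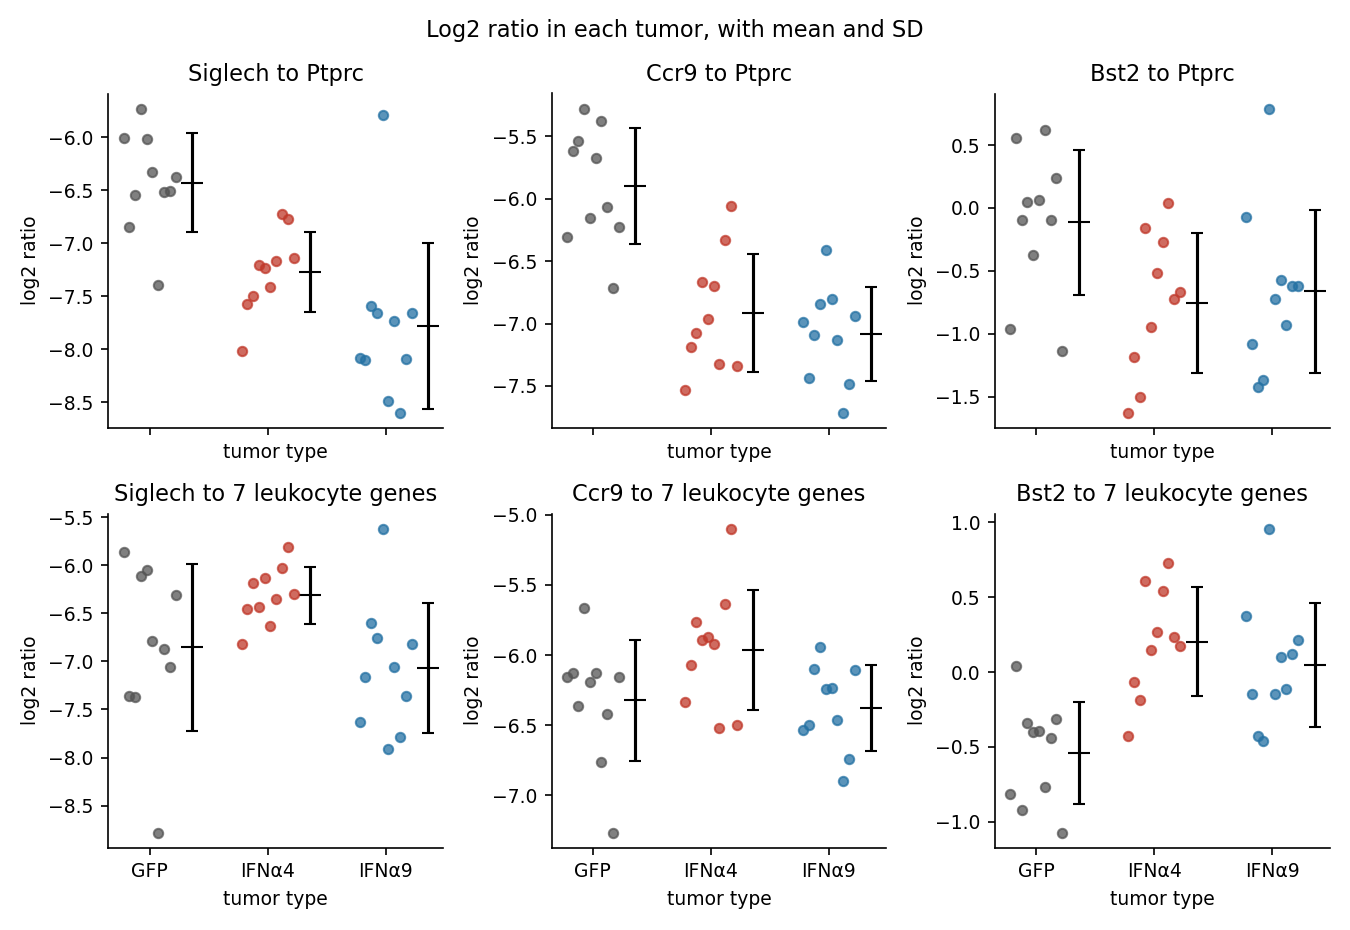
Log2 ratio (y axes, each panel on its own scale) of Siglech, Ccr9 and Bst2 to Ptprc (top) and to the mean of 7 leukocyte genes (bottom) in each of the 10 tumors of each type (points), with mean and SD. The GFP mean is the highest for Siglech and Ccr9 in the top row and not in the bottom row, and IFNα9 tumor 5 is the highest of its own type in both panels of Siglech.

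Markers of other cells moved with the tumor types too. Of 5 T cell genes, all rose with both interferons, with a summed level of 2.50 to 18.0 CPM in B16-GFP, 38.7 to 83.4 in B16-IFNA4 and 15.0 to 70.2 in B16-IFNA9 tumors. All 4 NK cell genes rose with both, from 2.14 to 9.79 CPM in B16-GFP to 35.4 to 129 and 21.7 to 87.6 CPM. Of 6 conventional dendritic cell genes, 3 rose with IFNα4 and 6 with IFNα9. Of 4 macrophage genes 2 rose with each. With IFNα9, Ccr7 of the dendritic cell genes lost its call in 22 and Cd68 of the macrophage genes in 10 of 30 fits that each left out 1 tumor, and without B16-GFP tumor 7 Csf1r was called lower with IFNα4. Of 4 tested genes of microglia, which also make Siglec-H, 1 fell with IFNα4 and none rose by edgeR, DESeq2 or at an unadjusted p under 0.05. With Sall1, which did not pass the filter, the summed levels were 23.8 to 106, 30.9 to 46.7 and 36.3 to 73.2 CPM. Which cells made these transcripts was not tested. Fcrls was the gene that fell, and without B16-GFP tumor 7 it was also called lower with IFNα9.

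Of 3 tested B cell genes, Pax5 rose with both interferons by edgeR, DESeq2 called 2 of the 3 higher with IFNα4, and the defining genes Ms4a1 and Cd79a had at most 25 counts in any tumor and did not pass the filter. Of 4 endothelial genes 3 fell with each interferon, and Kdr, the fourth, rose with IFNα4 by 1.35 on the log2 scale (edgeR adjusted p = 1.60e-08) and was not called with IFNα9, while the melanocyte genes Tyrp1 and Mitf fell with both. All 3 members can be made by cells other than pDCs, Ccr9 by T cells and Bst2 by most cells under interferon, and the part of such cells in these levels was not tested.

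Across the 10 tumors of a type, 6 relations were tested in each of the 3 types and adjusted over 18. In B16-GFP tumors, Siglech rose with Ptprc (Pearson r = 0.975, permutation adjusted p = 0.0027, Spearman rho = 0.903, permutation adjusted p = 0.0162). The r was 0.775 without the 2 tumors farthest from the median of Ptprc and 0.901 without tumor 7 (permutation adjusted p = 0.034). Bst2 followed the mean of the restriction genes there (r = 0.918, permutation adjusted p = 0.0027, rho = 0.818, permutation adjusted p = 0.0553), with r = 0.825 without the 2 farthest tumors and 0.807 without tumor 7, which was no longer called (permutation adjusted p = 0.0569). Siglech and Ccr9 had r = 0.854 (permutation adjusted p = 0.0408) and rho = 0.636 (permutation adjusted p = 0.218), and without tumor 7 the r was 0.547 (permutation adjusted p = 0.381), so that relation rested on tumor 7.

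No relation was called within the secreting types. Siglech and Ptprc had r = 0.416 in B16-IFNA4 and -0.02 in B16-IFNA9 tumors, the latter 0.711 without the 2 farthest tumors. Bst2 and the restriction genes had r = -0.072 and -0.253, within ranges of Bst2 that were narrower relative to their means than in B16-GFP tumors (coefficients of variation of 15.98% and 14.4% against 32.0%).

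**Figure D5:**
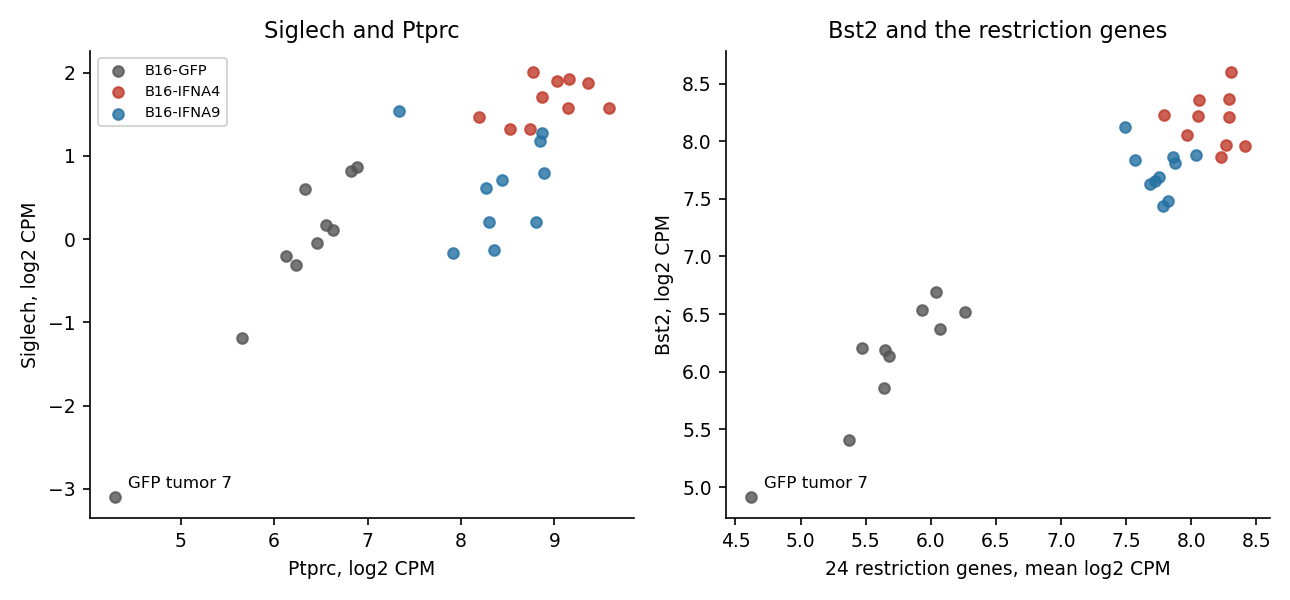
Log2 CPM of Siglech against Ptprc (left) and of Bst2 against the mean log2 CPM of 24 restriction genes (right), 1 point per tumor, with B16-GFP tumor 7 named. The B16-GFP points line up in both panels (r = 0.975 and 0.918), tumor 7 lies at the lower end of each, and the points of the secreting types do not line up.

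The genes most like each member were found from Pearson's r over the 30 tumors after the mean of each type was subtracted, as a description without a test. For Bst2 they were Dhx58, H2-D1, Irf7, Gm7030 and Stx4a, with r from 0.857 to 0.891. For Ccr9 they were Lama2, Prrx1, Nhsl2, Igsf10 and Zfp982, with r from 0.75 to 0.799, and Siglech came at rank 76. For Siglech they were Ddx60, Grk3, Shroom4, AI504432 and Dnase1l1, with r from 0.807 to 0.813, and Ccr9 came at rank 303. The 3 members were thus not each other's nearest genes, and all tumors share their scaling, so depth and tissue content enter every r.

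B16-GFP tumor 7 set much of this likeness. Without it the genes most like Siglech were Atp1b4, Lmod2, Klk1, Gm26740 and Gm43914, at r from 0.597 to 0.691. Klk1, at rank 3, was on the pDC marker list, and the others, with Atp1b4 and Lmod2 ahead of it, were not. Lama2, Prrx1 and Nhsl2 stayed among the 5 nearest to Ccr9, joined by Wasf3 and Kcnt2. For Bst2 the nearest included Gm11702, Parp10, Nosip and Ergic3, and its r with Siglech was -0.028 and with Ccr9 -0.39, where all 30 tumors had given 0.475 and 0.164.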

How the data were processed

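Whole tumors of 3 types, 10 each, were sequenced as stranded mRNA libraries with single-end reads. Per the submitters' processing notes and the study's methods, the authors used FastQC 0.11.3 and HISAT2 2.0.4, aligned to a mouse genome given as mm10 in the notes and as mm11 in the methods, and counted with summarizeOverlaps. The deposited values are raw counts per gene. The annotation, overlap mode, strand setting and treatment of multiply aligned reads are not given in the sources used here. Symbols and coordinates came from GENCODE M21 (39495 of 39676 identifiers matched), and promoters from RefSeq.

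Genes averaging 10 counts or more over the tumors were tested with edgeR 4.0.16 in R 4.3.3 (TMM, quasi-likelihood, all 30 tumors, Benjamini-Hochberg over 15926 genes, adjusted p under 0.05). Log2 CPM took a prior count of 2. SEs were computed as the log2 fold change over the root of F, and the 95% interval is normal. Ratios and relations used permutation tests in scipy 1.17.1 with 100000 resamples, which can give no p below 1e-05. The fit and the permutation tests were tested on simulated data. Labels give biological replicates with no statement on separate experiments, so p-values measure the spread between these tumors. The study's methods state that every experiment had 2 or more biological repeats, and the labels do not assign tumors to them. The named genes are the members, 15 genes with fixed roles, the 2 largest rises and 2 largest falls called in each list and comparison, the 5 genes most like each member and genes that overlap one. The members and lists were chosen with earlier results of these data known. Alternatives were DESeq2 1.42.0, other scalings and filters, a replicate block, only the 20 tumors compared, other prior counts and reference lists, and leaving out each tumor. List counts and most similar genes without B16-GFP tumor 7, list counts and Spib without tumor 8, and list counts with only the 20 tumors compared or without each tumor in turn, were added after seeing the data. List genes without a row were not analysed here. The limit of 3 counts covers counting error only. Some genes that the lists or the naming rule take are not reported here.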

Additional observations from a re-analysis of the deposited data

Results flagged for a closer look

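Among 30 groups of 10 tumors examined for a single distant value, 3 had one, where chance gives about 1.5. Siglech in B16-GFP tumor 7 had -3.09 log2 CPM, from a count of 0, when the other 9 tumors ran from -1.19 to 0.87. B16-IFNA9 tumor 5 had a log2 ratio of Siglech to Ptprc of -5.79, above the -8.60 to -7.59 of the others, and a log2 ratio of Siglech to Ccr9 of 0.62, above their -1.68 to -0.50.

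The effects of the 2 interferons against the same controls were called different for all 3 members in the edgeR fit, tested as the difference between the secreting types. The IFNα9 effect minus the IFNα4 effect was -0.999 on the log2 scale for Siglech (edgeR adjusted p = 0.0176), -0.71 for Ccr9 (0.0120) and -0.44 for Bst2 (0.0352), where 7.25% of all genes were called lower. The call for Bst2 was lost with library totals (adjusted p = 0.0686), with the replicate number as a block (0.0534) and in 8 of 30 edgeR fits that left out 1 tumor.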

How the results depend on the processing

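Of 1106 alternative values, 1014 kept their direction and side of the threshold or, for counts, stayed within 1.5 times. Siglech in B16-IFNA9 against B16-GFP tumors was called by edgeR with library totals (log2 fold change 0.77, adjusted p = 0.0486) or filterByExpr (0.71), by DESeq2 (0.71) and by a permutation test of log2 CPM (0.85), and leaving out each tumor gave 0.57 to 0.84, called in 7 of 30 fits. Bst2 between the secreting types lost its call with library totals (-0.42) and with the replicate number as a block (-0.45, edgeR adjusted p = 0.0534), and leaving out each tumor gave -0.48 to -0.39, with the call lost in 8 of 30 fits. Same-numbered tumors did not deviate together (median r = -0.054 over 30 pairs, 4 above 0.1). The block changed no other call of a member. With only the 20 tumors compared, 4332 genes were called between the secreting types in place of 2833, and leaving out each tumor gave 2106 to 3801. Library totals shifted the median of all genes by 0.103 for IFNα9 against GFP and its split from 4281 higher and 4595 lower to 5052 and 3608. The split went from 4977 and 5435 to 5413 and 4758 for IFNα4 against GFP and from 1679 and 1154 to 2030 and 916 between the secreting types. Without B16-GFP tumor 8, Spib with IFNα9 was 1.18 in place of -0.06.

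With the leukocyte mean in place of Ptprc, the ratio differences were 0.54 (Siglech), 0.36 (Ccr9) and 0.74 (Bst2) with IFNα4, -0.22, -0.05 and 0.59 with IFNα9, and -0.76 for Siglech and -0.16 for Bst2 between the secreting types. A prior count of 0.5 gave -0.56 and -1.12 for Siglech to Ptprc with IFNα4 and IFNα9, -0.078 (IFNα4) and 0.65 (between the secreting types) for Bst2 to Siglech, 0.0061 for Siglech to Ccr9 and 0.58 for Bst2 to Ccr9 with IFNα9, and r = -0.000156 for Siglech with Bst2 in B16-IFNA9 tumors. Library totals gave -0.64 for Bst2 to Ptprc with IFNα4 and 0.85 for Bst2 to Siglech with IFNα9, both then called. The core ISG list in place of the restriction genes gave 0.23 between the secreting types. Without B16-GFP tumor 7, Bst2 to Siglech was 0.99 and called and Bst2 to Ccr9 0.67 and not called with IFNα9, and r in B16-GFP tumors was -0.0078 for Bst2 with Ptprc, -0.011 for Siglech with Bst2, 0.547 for Siglech with Ccr9 and 0.807 for Bst2 with the restriction genes. The cause of these changes was not tested. Low counts of Siglech and Ccr9 limit what small differences the tumors can show.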
